A study of Mus musculus with 12 samples.

Results

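The Zfp36 family RNA decay factors were followed through neutrophils of control spleen and of injured liver. They are the CCCH zinc finger genes Zfp36, Zfp36l1 and Zfp36l2, the endonuclease gene Zc3h12a, the AU-rich element binder Elavl1 and the noncoding gene Gm26669, which overlaps Zfp36l1 on the opposite strand. They were chosen by name from 7 names, of which Regnase1 is an older name of Zc3h12a with no row of its own, so 6 of the 48709 genes in the table were described, and all 6 passed the filter on low counts that left 12488 genes. Gm26669 was chosen because it was known from these libraries to be high at 24 hours, so its values and every 24-hour difference of the members from spleen are given as a description, without a test. Neutrophils were sorted as Ly6Ghi Ly6Cint CD11b+ CD45+ cells from male C57BL/6N mice aged 8 to 10 weeks. There were 3 libraries of control splenic neutrophils from untreated mice, 4 of liver neutrophils taken 24 hours after 1 intraperitoneal injection of carbon tetrachloride in corn oil (24-hour neutrophils), and 5 taken 72 hours after it (72-hour neutrophils). Carbon tetrachloride is a hepatotoxin, used here to compare neutrophils of the inflammatory phase with those of the repair phase. Liver leukocytes were isolated by mechanical dissociation, enzymatic digestion and a Percoll gradient, and spleen cells by mechanical dissociation. The controls came from another organ and no vehicle-injected group was analysed here. Organ, isolation method, injection and injury therefore cannot be told apart in a comparison with spleen.

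The lifetime of an mRNA sets how long a cytokine message can be translated, and myeloid cells use several RNA-binding proteins to shorten it. Zfp36 (tristetraprolin), Zfp36l1 and Zfp36l2 bind AU-rich elements in 3′ UTRs through a tandem zinc finger and recruit the CCR4-NOT deadenylase, after which the message is decapped and degraded. Zc3h12a (Regnase-1) cleaves stem-loops in the 3′ UTRs of inflammatory mRNAs, and Elavl1 (HuR) binds AU-rich elements and is best known for protecting them. The mRNA of Zfp36 is an immediate early transcript of stimulated macrophages and neutrophils and carries AU-rich elements of its own.

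The domain that the 3 CCCH proteins share is shown first, since it is what makes them a family. The coding strand from the first zinc-binding cysteine of finger 1 to the last histidine of finger 2 was read from GRCm38, with the codons of the zinc-binding cysteines and histidines in capitals. It lies in Zfp36 at chr7:28378044-28378217, in Zfp36l1 at chr12:80110075-80110248 and in Zfp36l2 at chr17:84186554-84186727, all on the minus strand.
Zfp36 zinc fingers: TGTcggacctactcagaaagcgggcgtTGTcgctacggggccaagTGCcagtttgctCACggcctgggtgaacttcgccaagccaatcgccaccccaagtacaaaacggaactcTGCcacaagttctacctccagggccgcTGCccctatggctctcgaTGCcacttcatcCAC
Zfp36l1 zinc fingers: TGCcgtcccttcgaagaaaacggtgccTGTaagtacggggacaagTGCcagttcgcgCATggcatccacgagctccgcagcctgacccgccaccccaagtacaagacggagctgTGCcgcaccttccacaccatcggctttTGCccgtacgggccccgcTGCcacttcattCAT
Zfp36l2 zinc fingers: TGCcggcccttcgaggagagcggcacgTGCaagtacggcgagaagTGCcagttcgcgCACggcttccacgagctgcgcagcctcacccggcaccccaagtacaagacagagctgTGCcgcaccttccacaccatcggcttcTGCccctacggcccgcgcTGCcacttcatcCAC
Each stretch has 174 bases and encodes 58 residues with 2 fingers. The encoded residues of Zfp36l1 and Zfp36l2 were identical at 54 of 58 positions (93.1%), those of Zfp36 and Zfp36l1 at 39 (67.2%) and those of Zfp36 and Zfp36l2 at 40 (69.0%).

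The family's own messages also hold the letters that the family binds. The DNA form of the core, TATTTAT, was searched on the transcript strand of annotated 3′ UTRs, with overlapping matches counted, and 27.6% of 20852 3′ UTRs held at least 1. There were 3 matches in the 3′ UTR of Zfp36, 3 in that of Zfp36l1, 3 in that of Zfp36l2, 8 in that of Elavl1 and 0 in that of Zc3h12a. A match is a description of the letters and does not show that the site is bound. A 30-base stretch of each CCCH gene that holds such a core in capitals (2 of them in Zfp36) is printed to show it, from chr7:28376954-28376983, chr12:80108422-80108451 and chr17:84184914-84184943 of GRCm38, minus strand.
Zfp36 AU-rich site: TATTTATgacgacttTATTTATtgtattaa
Zfp36l1 AU-rich site: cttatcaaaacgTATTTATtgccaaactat
Zfp36l2 AU-rich site: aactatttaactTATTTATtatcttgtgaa
All 30 bases of the Zfp36l1 site also lie inside an exon of Gm26669 on the other strand, whereas 0 of the 174 bases of its zinc finger stretch do.

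The opposite-strand overlaps bear on how the counts of these genes can be read. Zfp36l1 (ENSMUSG00000021127.6) spans chr12:80107754-80113013 on the minus strand, and Gm26669 (ENSMUSG00000097417.1), annotated as a lincRNA, spans chr12:80108034-80113000 on the plus strand. Of the 1808 exonic bases of Gm26669, 1672 lie opposite exons of Zfp36l1 and 136 do not. They cover 1490 of the 1835 bases of the Zfp36l1 3′ UTR, 57 of its 1017 coding bases and 125 of the 138 bases of its 5′ UTR. Zfp36 (ENSMUSG00000044786.6, chr7:28376784-28380253, minus strand) has an antisense gene too, Gm44710 (ENSMUSG00000109455.1, chr7:28378980-28392514, plus strand). Of the 471 exonic bases of Gm44710, 125 lie opposite Zfp36, inside the intron of its transcript with 2 exons and inside the exon of its transcript with 1 exon. Another 64, in its far exon, lie opposite Med29. Zfp36l2 (ENSMUSG00000045817.8, chr17:84183931-84187947) shares 105 exonic bases with an antisense gene, AC132455.1, that was not analysed here. Elavl1 (ENSMUSG00000040028.10, chr8:4285382-4325413) shares 204 with Ccl25, which had 7 counts over the 12 libraries against 182 for Elavl1. Zc3h12a (ENSMUSG00000042677.7, chr4:125118423-125127840) was the only member with no opposite-strand exon.

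**Figure D1:**
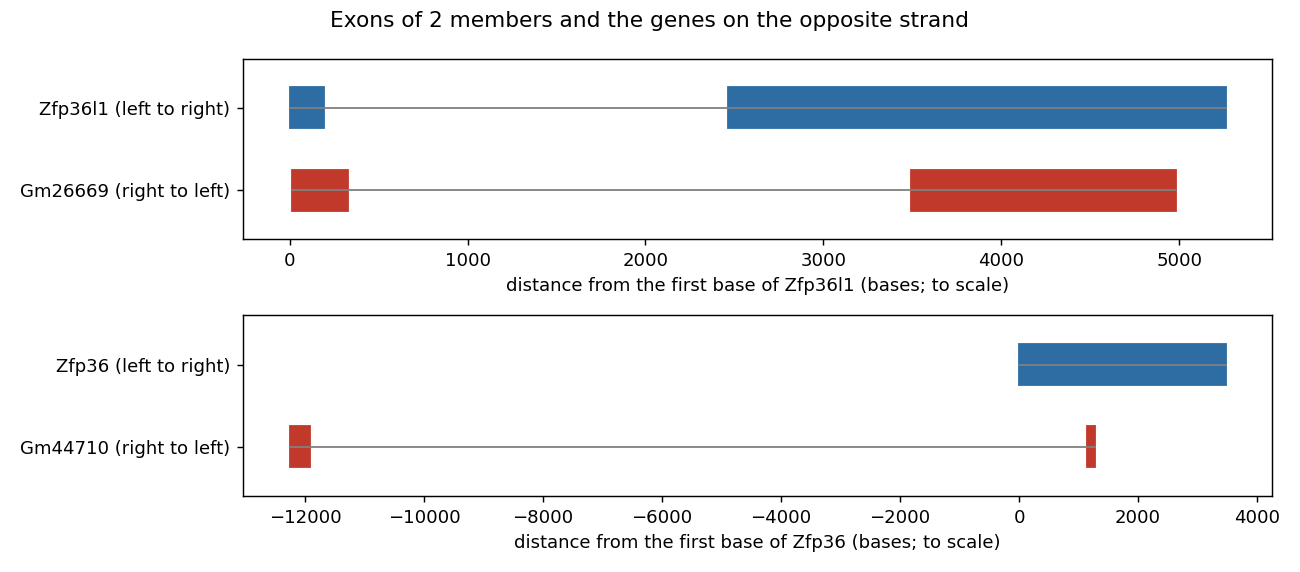
Exons (boxes) and introns (lines) of Zfp36l1 and Gm26669, above, and of Zfp36 and Gm44710, below, by distance in bases from the first base of the protein-coding gene, with all annotated transcripts of a gene merged. The second exon of Zfp36l1 contains the whole longer exon of Gm26669 (1490 bases), whereas 125 bases of Gm44710 lie within Zfp36 and its other exon lies far upstream.

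The libraries held between 1267089 and 3017403 counts on genes, so that 1 CPM (counts scaled to the library size) stood for 1 to 3 counts. Of the uniquely aligned reads, 96.8% to 97.3% lay on no gene. The kit was stranded, and the strand option of the counting is not given in the sources used here. An exon on the opposite strand was annotated for 39.8% of the 12488 genes tested, for 82.2% of the 1000 genes with the most counts, for 96 of the top 100 and for 20 of the top 20. From these counts, RNA of a gene and of its opposite-strand neighbour cannot be told apart. Which strand of a locus was counted is not known either, which bears on every row, also on those without an annotated opposite-strand exon such as Zc3h12a, and the values below are those of the gene rows as named. Spleen replicate 3 stood apart in granule genes, with 80.1 normalized CPM of S100a8 against 1308 and 1372 in the other two spleen libraries. Reads that did not align made up 1.91% and 1.98% in 72-hour replicates 2 and 3, and 49.6% to 50.7% elsewhere. Values without these libraries are given for several members and for numbers of called genes. They are not given for Gm44710 or for single genes of the lists.

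In normalized CPM (also scaled by the TMM factor), Gm26669 was among the highest rows of the table, while Zfp36 held 261 to 1494 counts per library, Zfp36l2 228 to 700 and Zfp36l1 43 to 337. The mean level of Gm26669 ranked 46th of 48709 genes in spleen, 10th at 24 hours and 16th at 72 hours. It took 0.234% to 0.307% of all gene counts in spleen, 1.10% to 1.57% at 24 hours and 0.496% to 0.850% at 72 hours. Because these are bulk libraries, a difference in level can come from the share of cells that hold the RNA or from the amount per cell, which cannot be told apart.

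**Figure D2:**
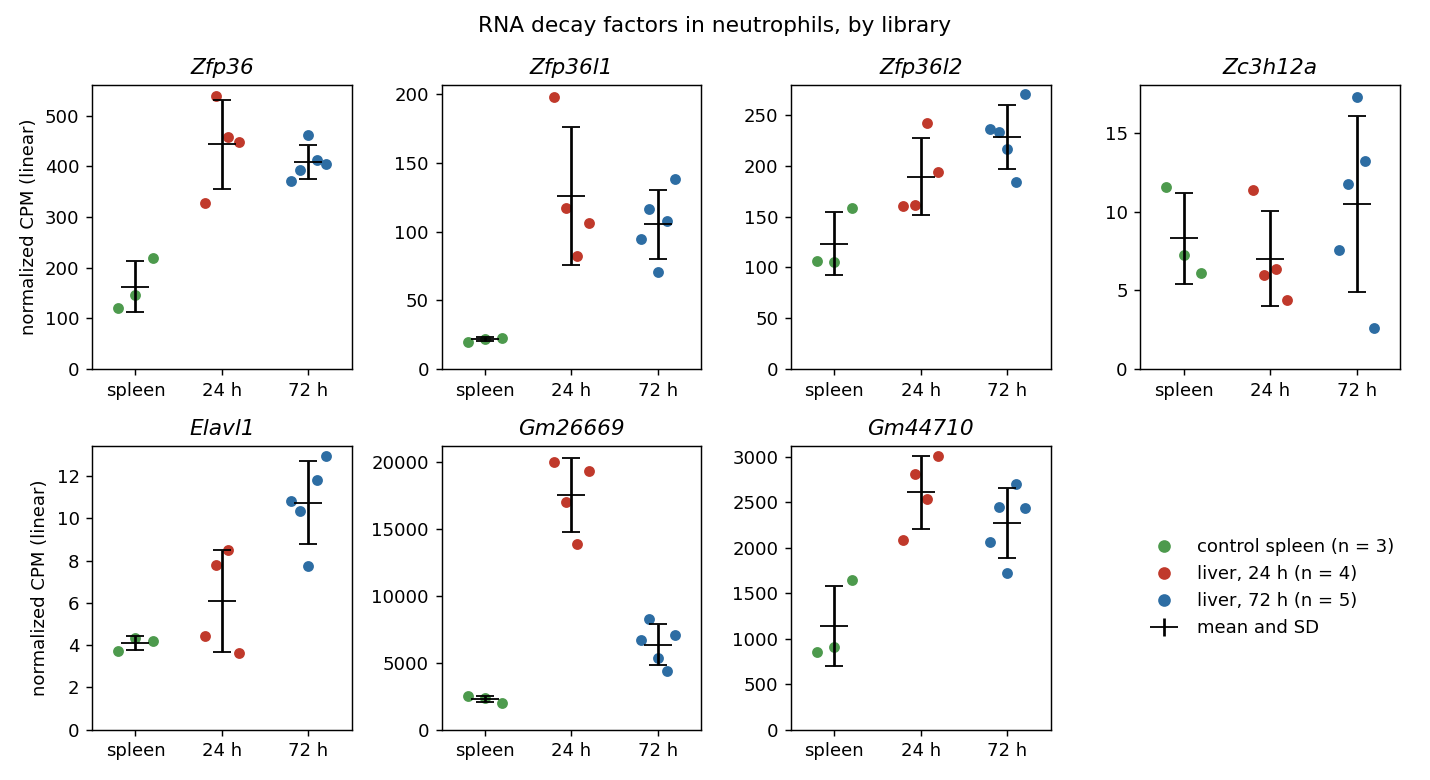
Normalized CPM (linear axis from 0) of the 6 members and of Gm44710 in each library, with points for libraries and the mean and SD of each group. For Zfp36, Zfp36l1, Zfp36l2, Gm26669 and Gm44710, every liver library lies above every spleen library, and for Gm26669 the 24-hour libraries also lie above the 72-hour ones.

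Compared per kilobase of exon, the levels fell in nearly the same order in every group. In spleen, Gm26669 led with 1264 ± 137 CPM per kilobase (SD, n = 3). Zfp36 followed with 46.8 ± 14.6, Zfp36l2 with 34.9 ± 8.73, Zfp36l1 with 7.19 ± 0.487, Zc3h12a with 2.89 ± 1.0 and Elavl1 with 0.394 ± 0.0319. The ranges of Zfp36 and Zfp36l2 overlapped in spleen, and those of all other neighbours in the order did not. At 24 hours (n = 4) the order was the same, with 9711 ± 1525 for Gm26669, 127.7 ± 25.2 for Zfp36, 53.6 ± 10.9 for Zfp36l2 and 42.1 ± 16.8 for Zfp36l1, and of all neighbours only these last 2 overlapped. Zc3h12a had 2.44 ± 1.05 and Elavl1 0.587 ± 0.233. At 72 hours (n = 5) it was the same again, with 3516 ± 839.5 for Gm26669, 117.8 ± 9.81 for Zfp36, 64.6 ± 8.92 for Zfp36l2 and 35.3 ± 8.43 for Zfp36l1. Zc3h12a (3.64 ± 1.95) and Elavl1 (1.04 ± 0.189) were last at 72 hours and overlapped each other. Among the CCCH rows as named, Zfp36 had the highest mean level per length in each group and Zfp36l1 the lowest. Which strand was counted is not known, and most exonic bases of Gm26669 lie opposite Zfp36l1. The order of the rows therefore need not be the order of the RNAs.

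Zfp36, the founding member of the family, was higher in liver neutrophils at both time points. It had 121.1, 146.8 and 219.0 normalized CPM in spleen replicates 1 to 3. At 24 hours it had 327.3, 539.3, 458.2 and 447.9, and at 72 hours 370.3, 393.4, 462.4, 413.4 and 403.6. The liver libraries were all above the spleen libraries, and the 2 liver groups overlapped. The 24-hour log2 difference from spleen was 1.45 ± 0.24 (SE), which is 2.73-fold. Against spleen, Zfp36 rose at 72 hours by 1.33 ± 0.23 (2.52-fold, edgeR adjusted p = 8.5e-04), and without spleen replicate 3, its highest spleen library, by 1.61 (adjusted p = 1.5e-04). Without spleen replicate 1 it rose by 1.16 (adjusted p = 0.0163), the lowest of the fits without 1 library. The 72-hour and 24-hour levels differed by -0.12 ± 0.20, with a 95% interval from -0.54 to 0.30 (adjusted p = 0.789).

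Zfp36l1, whose protein shares the AU-rich specificity of Zfp36, had the largest fold difference from spleen among the 5 protein-coding members at both times. It had 19.9, 21.7 and 22.8 normalized CPM in spleen, from 43, 60 and 71 counts. At 24 hours it had 198.0, 117.0, 82.0 and 106.5, and at 72 hours 94.3, 116.4, 70.6, 107.7 and 138.2. No liver library came near the spleen libraries, which lay close together, and 24-hour replicate 1 was the highest. The log2 difference from spleen was 2.54 ± 0.32 at 24 hours (5.84-fold). At 72 hours Zfp36l1 was higher than in spleen by 2.29 ± 0.31 (4.88-fold, edgeR adjusted p = 5.9e-05), and without spleen replicate 3 by 2.33 (adjusted p = 1.9e-04). Between the 2 liver groups the difference was -0.26 ± 0.25, with a 95% interval from -0.78 to 0.27 (adjusted p = 0.597).

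Zfp36l2, the third CCCH gene, was modestly higher in liver neutrophils. It had 105.8, 105.1 and 158.8 normalized CPM in spleen, with replicate 3 again highest. At 24 hours it had 160.2, 161.4, 241.8 and 194.0, and at 72 hours 236.4, 232.8, 216.7, 184.1 and 270.6. The lowest liver library lay just above the highest spleen library. The log2 difference at 24 hours was 0.62 ± 0.24 (1.53-fold). Over the fits without 1 library it ran from 0.48 (without 24-hour replicate 3) to 0.84 (without spleen replicate 3). At 72 hours Zfp36l2 rose by 0.89 ± 0.23 (1.85-fold, edgeR adjusted p = 0.0249). This call was lost without spleen replicate 1 (adjusted p = 0.167), spleen replicate 2 (adjusted p = 0.179), 72-hour replicate 1 (adjusted p = 0.0516) or 72-hour replicate 2 (adjusted p = 0.0524). It was also lost without 72-hour replicates 2 and 3 together (adjusted p = 0.0791), with log2 differences of 0.78 to 0.90 over these 5 fits. The 72-hour and 24-hour groups overlapped, with a difference of 0.27 ± 0.21 and a 95% interval from -0.16 to 0.70 (adjusted p = 0.484).

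Gm26669, the noncoding gene opposite Zfp36l1, was highest at 24 hours and intermediate at 72 hours. It had 2484, 2366 and 2007 normalized CPM in spleen. At 24 hours it had 20002, 17001, 13898 and 19327, and at 72 hours 6677, 8258, 5371, 4367 and 7109. The 3 groups did not overlap. The log2 difference from spleen was 2.94 ± 0.24 at 24 hours (7.68-fold) and 1.48 ± 0.21 at 72 hours (2.78-fold), which became 2.86 and 1.39 without spleen replicate 3, and the 72-hour level was below the 24-hour level by a log2 difference of -1.47 ± 0.19. Its row holds counts of 5355 to 31714 per library, so counting error is small beside the spread between libraries.

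The counts of the overlapping pair were far from equal. Zfp36l1 held 0.797% to 1.12% of the counts of both genes in spleen, 0.548% to 0.980% at 24 hours and 1.30% to 2.41% at 72 hours. The 72-hour shares lay above those of both other groups, and the shares of spleen and 24-hour libraries overlapped. Zfp36 held a larger part of its pair, 11.7% to 13.9% of the counts of Zfp36 and Gm44710 in spleen, 13.0% to 16.1% at 24 hours and 13.3% to 21.1% at 72 hours. Those ranges overlapped between every 2 groups. Which exon of Gm44710 its counts lie on is not known, so its share need not come from the part opposite Zfp36.

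**Figure D3:**
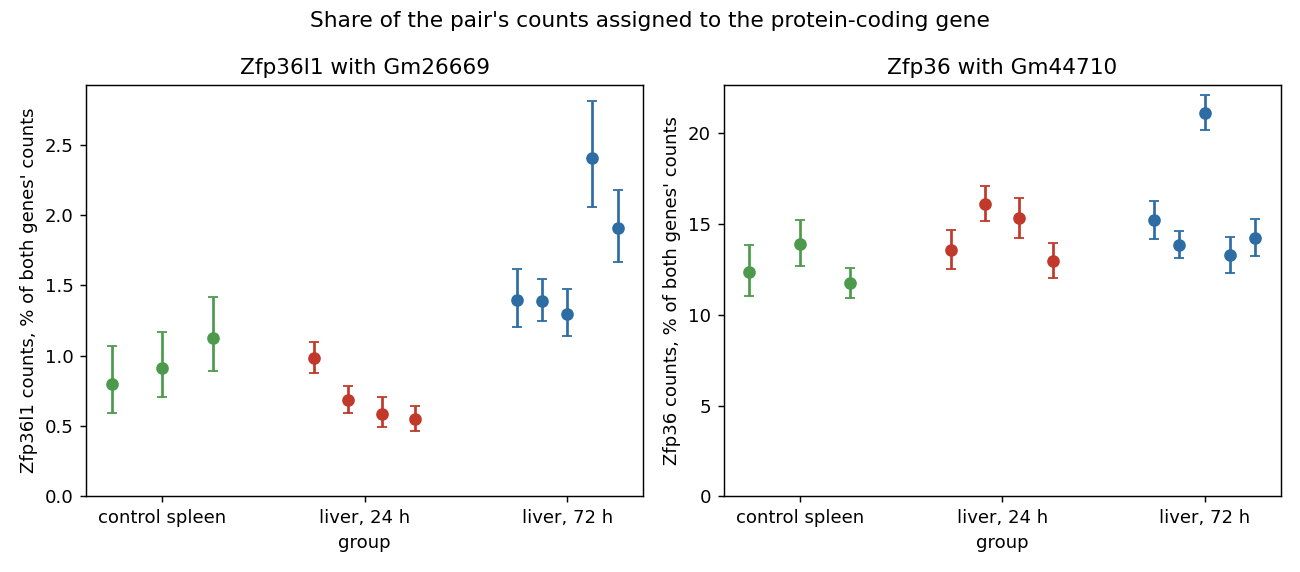
Percent of the counts of each overlapping pair that were assigned to the protein-coding gene, by library, with 95% Wilson intervals that cover counting error only. Zfp36l1 stays below 2.5% of its pair in all 12 libraries and is highest at 72 hours, and Zfp36 lies between 11.7% and 21.1% of its pair.

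Gm44710, the antisense gene at Zfp36, was tested in all 3 comparisons. It had 856.8, 909.5 and 1645 normalized CPM in spleen, 2085, 2807, 2535 and 3007 at 24 hours, and 2063, 2448, 1725, 2698 and 2433 at 72 hours. Spleen replicate 3 was again the highest of its group, and no spleen library reached a liver library. Gm44710 rose by 1.20 ± 0.24 on the log2 scale at 24 hours (edgeR adjusted p = 0.0026) and by 0.999 ± 0.23 at 72 hours (adjusted p = 0.00997). The 2 liver groups differed by -0.20 ± 0.20, with an interval from -0.62 to 0.22 (adjusted p = 0.619). Across the 12 libraries, its log2 CPM and that of Zfp36 had a Pearson r of 0.927, where the points share group and library.

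Zc3h12a and Elavl1 were low, and their differences were imprecise. Zc3h12a had 11.6, 7.25 and 6.11 normalized CPM in spleen, 11.4, 6.0, 6.36 and 4.38 at 24 hours, and 7.59, 11.7, 17.3, 13.2 and 2.60 at 72 hours, from 4 to 56 counts per library. All 3 groups overlapped. The log2 difference from spleen was -0.22 ± 0.53 at 24 hours and 0.37 ± 0.49 at 72 hours, with a 95% interval from -0.64 to 1.39 (edgeR adjusted p = 0.799). The 2 liver groups differed by 0.60 ± 0.47, with an interval from -0.39 to 1.58 (adjusted p = 0.499).

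Elavl1 had 3.71, 4.35 and 4.18 normalized CPM in spleen, 4.41, 7.80, 8.49 and 3.65 at 24 hours, and 10.8, 10.4, 7.74, 11.8 and 13.0 at 72 hours, from 5 to 30 counts. The 72-hour libraries lay above the spleen libraries, and the 24-hour libraries spanned both. The log2 difference from spleen was 0.57 ± 0.48 at 24 hours and 1.37 ± 0.45 at 72 hours, with an interval from 0.44 to 2.30. The 72-hour difference missed the threshold in edgeR (adjusted p = 0.0832) and passed it in the Wald test of DESeq2 (adjusted p = 0.0358). Between the liver groups it was 0.80 ± 0.41, with an interval from -0.05 to 1.65 (adjusted p = 0.270).

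In the comparison of 24-hour neutrophils with spleen, 9.75% of all genes were called, 5.35% higher and 4.4% lower. No count of the members is given for it, since 24-hour values entered their choice. At 72 hours against spleen, 3 of the 5 members other than Gm26669 were called, all higher (Zfp36, Zfp36l1 and Zfp36l2), where 5.33% of all genes were called, 2.63% higher and 2.71% lower. The log2 differences of these 5 members at 72 hours ran from 0.37 (Zc3h12a) to 2.29 (Zfp36l1), beside a median of -0.02 for all genes tested. Between 72 and 24 hours, 0 of these 5 were called by edgeR or by DESeq2, and 0 had an unadjusted p below 0.05, where 4.49% of all genes were called, 1.65% higher and 2.84% lower. Both comparisons with spleen share the same 3 control libraries, so they are not independent of each other. The members were also chosen with earlier results of these data known, so the 3 calls at 72 hours are not independent evidence of their direction.

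**Figure D4:**
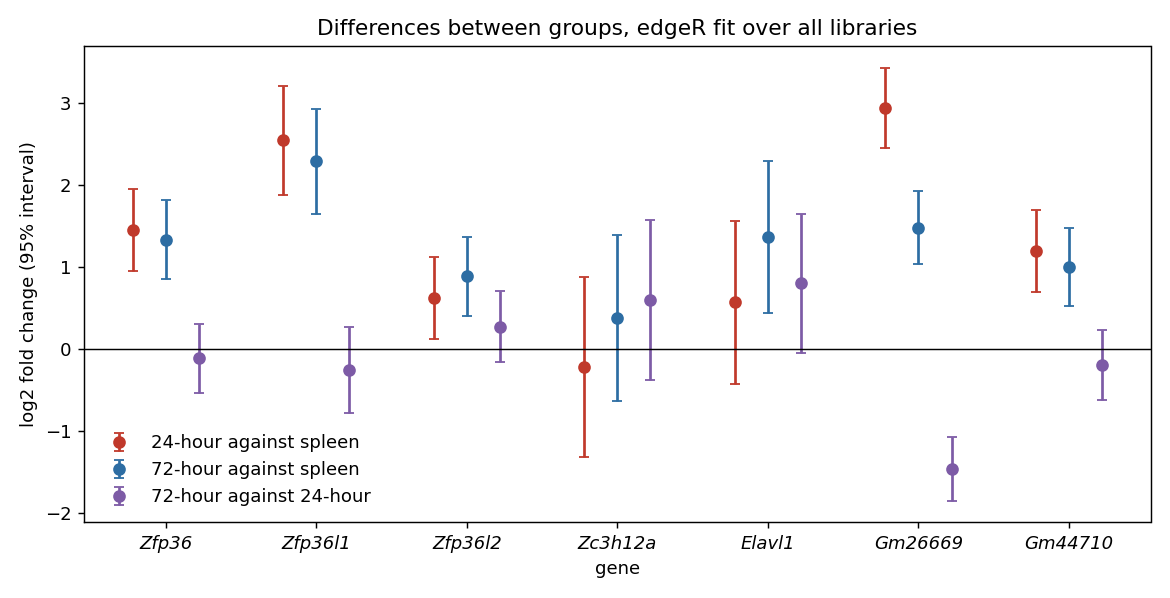
Log2 fold changes with 95% intervals from the edgeR fit over all 12 libraries, for the 6 members and Gm44710, with 1 color for each comparison and a line at 0. The 72-hour against 24-hour points of the 5 protein-coding members lie between -0.26 and 0.80, and that of Gm26669, shown as a description, at -1.47.

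The members work through shared machinery, whose genes were read from lists chosen with earlier results of these data known. Of 19 deadenylation genes tested (CCR4-NOT and PAN subunits, poly(A)-binding proteins and the BTG/TOB adaptors), 1 rose at 24 hours, 2 at 72 hours against spleen, and 4 at 72 against 24 hours, and 0 fell in any comparison. Among all genes tested, 5.35%, 2.63% and 1.65% were called higher in these comparisons. Btg2, an antiproliferative adaptor that binds the CCR4-NOT deadenylase, had 33.7 to 49.5 normalized CPM in spleen, 103.8 to 129.1 at 24 hours and 155.6 to 388.1 at 72 hours. It rose by 1.53 ± 0.31 on the log2 scale at 24 hours and by 2.59 ± 0.31 at 72 hours (edgeR adjusted p = 0.0028 and 1.6e-05), and it was higher at 72 than at 24 hours by 1.06 ± 0.26 (adjusted p = 0.0244). Its relative Btg1 rose at 72 hours by 0.98 ± 0.21 against spleen (adjusted p = 0.0051) and by 0.66 ± 0.19 against 24 hours (adjusted p = 0.0483). The CCR4-NOT subunits Cnot2 (2 to 9 counts at 24 hours, 17 to 37 at 72 hours) and Cnot8, a catalytic subunit (1 to 4 and 7 to 24 counts), were also higher at 72 than at 24 hours, by 1.65 ± 0.45 and 2.08 ± 0.57 (adjusted p = 0.0376 and 0.0404). Cnot2 has 232 bases of opposite-strand exon. The list's median log2 difference was -0.61 at 24 hours and 0.04 at 72 hours against spleen, and 0.66 between the liver groups. The medians of all genes in these comparisons were -0.23, -0.02 and 0.18.

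The later steps of decay were covered by a list of decapping genes and one of the exosome. Of 12 decapping and 5′ decay genes, 1 rose at 24 hours and 0 were called in the other comparisons, where 9.75%, 5.33% and 4.49% of all genes were called in either direction. The called gene was Edc3, an enhancer of decapping, by 0.84 ± 0.19 on the log2 scale (edgeR adjusted p = 0.0078), and 1284 of its exonic bases lie opposite another gene. Of 10 genes of the exosome, which degrades RNA from the 3′ end, and of its Ski cofactor, 1 fell against spleen at both times and 0 were called between the liver groups. Exosc9, a structural subunit of the exosome, had 38 to 219 counts in spleen, 0 to 4 at 24 hours and 1 to 4 at 72 hours. Spleen replicate 3 was the lowest of its group, with 12.2 normalized CPM against 79.4 and 87.2. Exosc9 fell by 6.05 ± 0.75 at 24 hours (adjusted p = 2.4e-05) and dropped by 5.36 ± 0.62 at 72 hours (adjusted p = 9.2e-06), and 510 of its exonic bases lie opposite another gene. The median log2 differences of both lists lay between -0.15 and 0.27 over the 3 comparisons, near those of all genes.

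Among 13 other RNA-binding regulators of mRNA stability, 1 fell at 24 hours, 0 were called at 72 hours against spleen and 1 rose from 24 to 72 hours. Both calls were of Tia1. Among all genes tested, 9.75%, 5.33% and 4.49% were called in either direction in these comparisons. Tia1, a translational silencer that binds U-rich sequence, had 7 to 23 counts in spleen, 0 to 1 at 24 hours and 3 to 20 at 72 hours. It fell at 24 hours (edgeR adjusted p = 0.0124), where the spleen level was 10.5 times the 24-hour level with a counting interval from 3.36 to 53.1. It was higher at 72 than at 24 hours (adjusted p = 0.0338), with a ratio of 8.82 and a counting interval from 2.84 to 44.3. These counts are small, so the sizes are loosely bounded.

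Of 11 kinases, phosphatases and proteases that act on the members, 2 rose at 24 hours and 0 were called in the other comparisons. At 24 hours 5.35% of all genes were called higher, and 9.75%, 5.33% and 4.49% were called in either direction in these comparisons. Mapkapk2, the kinase that phosphorylates Zfp36 downstream of p38 and blunts its decay activity, had 18.3 to 40.8 normalized CPM in spleen, 88.4 to 148.8 at 24 hours and 30.6 to 104.1 at 72 hours. It rose by 1.86 ± 0.38 on the log2 scale at 24 hours (edgeR adjusted p = 0.0030). Ppp2ca, a catalytic subunit of the phosphatase that reverses that step, rose at 24 hours by 0.80 ± 0.24 (adjusted p = 0.0349), and 3093 of its exonic bases lie opposite another gene.

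Most of the tested mRNAs that are known targets of the members were higher in liver neutrophils. Of 19 tested, 13 rose at 24 hours and 13 at 72 hours against spleen, 3 were higher at 72 than at 24 hours, and 0 fell in any comparison, where 5.35%, 2.63% and 1.65% of all genes were called higher. The median log2 difference was 1.82 at 24 hours and 2.30 at 72 hours against spleen, and 0.73 between the liver groups, beside -0.23, -0.02 and 0.18 for all genes. Since this list was also chosen with results known, it is not independent evidence of its direction. Several of these genes are inflammatory mediators that are known to be induced in activated neutrophils, and counts of RNA do not separate synthesis from decay. Cxcl2, a neutrophil chemoattractant, had 1 to 2 counts in each spleen library, and between 166 and 387 in 24-hour and between 94 and 2110 in 72-hour libraries. Its ratio to spleen was 357.6 at 24 hours, with a counting interval from 139.3 to 1315, and 821.5 at 72 hours, with an interval from 320.6 to 3016 (edgeR adjusted p = 9.2e-07 and 2.5e-07). Ptgs2, the inducible cyclooxygenase, had 2.17 to 5.57 normalized CPM in spleen, 37.2 to 148.8 at 24 hours and 157.7 to 739.1 at 72 hours. It rose by 4.41 ± 0.61 on the log2 scale at 24 hours and by 6.59 ± 0.64 at 72 hours (adjusted p = 8.0e-05 and 1.2e-06), and by 2.19 ± 0.43 from 24 to 72 hours (adjusted p = 0.0072).

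The other named targets are a chemokine, a kinase, a phosphatase, a transcription factor and a cytokine. Ccl4, a chemokine, had 0 to 1 counts in spleen and 13 to 30 at 24 hours, a ratio of 113.1 with a counting interval from 19.8 to 4519 (edgeR adjusted p = 1.4e-04). Pim1, a survival kinase, had 58.5 to 67.4 normalized CPM in spleen and 253.5 to 398.3 at 24 hours and rose by 2.28 ± 0.33 (adjusted p = 1.3e-04), and 488 of its exonic bases lie opposite another gene. Dusp1, the phosphatase that switches off p38, rose by 2.79 ± 0.32 at 72 hours, from 50.0 to 121.2 normalized CPM in spleen to 375.9 to 734.5 (adjusted p = 9.2e-06). Fos, an immediate early transcription factor, had 50.4 to 146.6 normalized CPM in spleen, 213.2 to 345.0 at 24 hours and 485.8 to 873.7 at 72 hours. It rose by 2.83 ± 0.33 at 72 hours against spleen (adjusted p = 9.2e-06) and by 1.13 ± 0.27 against 24 hours (adjusted p = 0.0195). Il1b, the interleukin-1 beta gene, had 133.8 to 176.9 normalized CPM in spleen, 142.5 to 279.4 at 24 hours and 406.4 to 1273 at 72 hours. Its spleen and 24-hour ranges overlapped, and it rose from 24 to 72 hours by 1.71 ± 0.29 (edgeR adjusted p = 0.0022). At the liver time points not given above, Ccl4 had 6 to 60 counts and Pim1 151.5 to 493.4 normalized CPM at 72 hours. Dusp1 had 239.0 to 370.5 normalized CPM at 24 hours.

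**Figure D5:**
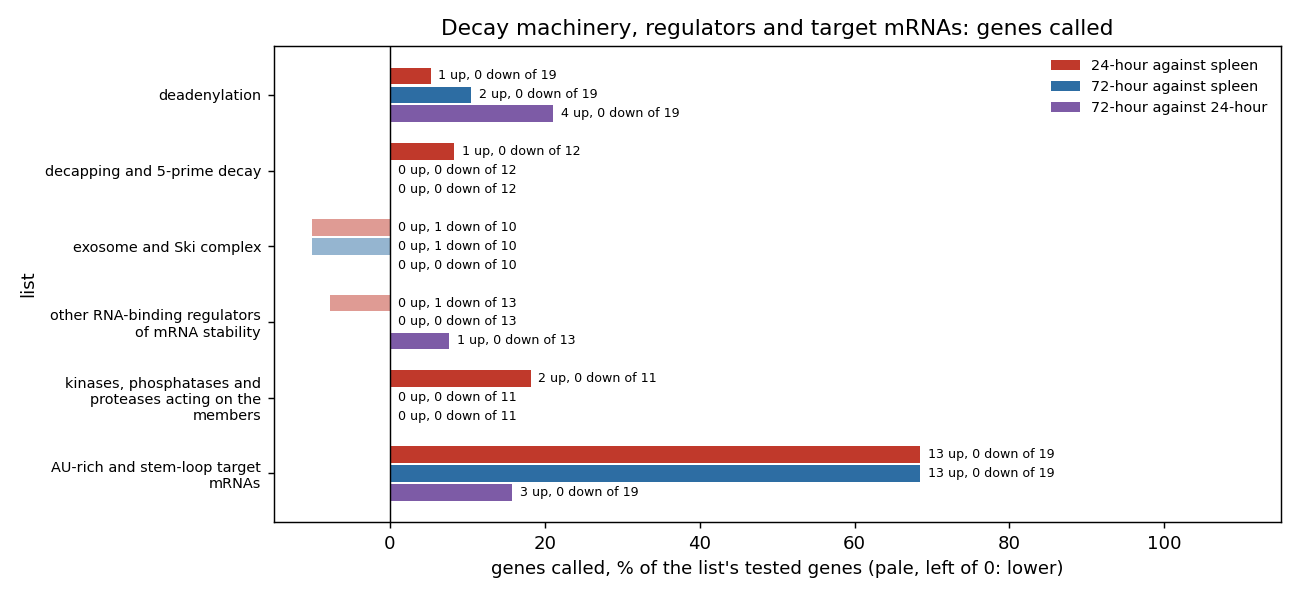
Percent of the tested genes of each list that were called higher (right of 0) or lower (pale, left of 0), with the numbers beside the bars and 1 color for each comparison. In the target list 13 of 19 genes were called higher at each time against spleen, and no other list had more than 4 genes called in a comparison.

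The calls of the lists between 72 and 24 hours depended on single libraries and on the genes fitted. Over the 6 lists, 8 genes were called there. The number was 2 without 24-hour replicate 1, 24-hour replicate 2 or 72-hour replicate 3, 3 without 72-hour replicate 2, 4 without 72-hour replicate 1, and 5 without 24-hour replicate 3 or 72-hour replicate 5. It was 1 without 72-hour replicates 2 and 3 together. It was also 1 in a fit restricted to genes with no opposite-strand exon, which still held 6 of the 8. Against spleen, 19 list genes were called at 24 hours and 16 at 72 hours, which became 17 and 15 without spleen replicate 3, and the 24-hour number was 11 without spleen replicate 2.

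The genes whose log2 CPM followed each member most closely over the 12 libraries were listed by Pearson's r, with no test, since all libraries share the 3 groups. For Gm26669 they were Gm28033 (r = 0.969), Gm26728 (0.966), Gm26586 (0.964), Cln3 (0.961) and Dvl2 (0.961), and each of these 5 has exons opposite another gene (Ppp1r18, Cd9, Tpm4, Apobr and Acadvl). For Zfp36 they were Gm45244, which lies opposite Acsl1 (0.957), Vmp1 (0.939) and Gm4262 (0.938). For Zfp36l1 they were Gm16894 (0.943), Abca1 (0.929) and Smox (0.926), and for Zfp36l2 they were Dusp1 (0.951), Ift20 with 1 to 7 counts (0.922) and Cdk17 (0.912). Zc3h12a and Elavl1, with few counts, were followed by Nop9, Tdrd7 and Nubp2 (0.899 to 0.828) and by Gm26883, Nampt and Btg1 (0.940 to 0.845). Of the genes named for these other members, Dusp1, Cdk17, Nop9 and Gm26883 also have opposite-strand exons, as do 39.8% of all genes tested. The share was 82.2% among the 1000 genes with the most counts. The 5 genes named for Gm26669 held 522 to 11737 counts per library, so their opposite-strand exons do not set them apart from other abundant rows. Among the members, r was 0.837 between Zfp36 and Zfp36l1, 0.808 between Zfp36 and Zfp36l2, 0.836 between Zfp36l1 and Gm26669, and 0.473 between Zfp36l2 and Gm26669.

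Markers of the sorted cells and of other cells were counted beside these results. Of 16 neutrophil markers 14 were tested, Elane was at 0 in all libraries, and their summed level was 2537 to 11550 normalized CPM in spleen, 1253 to 3039 at 24 hours and 2202 to 2977 at 72 hours. At 24 hours 6 of them were called lower than in spleen, and at 72 hours 8, and 1 was called higher at 72 than at 24 hours. Among all genes tested, 4.4% were called lower at 24 hours and 2.71% at 72 hours against spleen. Between the liver groups 1.65% were called higher at 72 hours. The lowest spleen sum was that of replicate 3. The summed level of 10 hepatocyte markers was 2.32 to 6.11 in spleen, 14.9 to 19.8 at 24 hours and 3.24 to 25.4 at 72 hours, with Ttr, Apoc3 and Cps1 at 0 throughout. Of the 3 hepatocyte markers tested, 1 was called higher at 24 hours than in spleen, where 5.35% of all genes were. The sums of 10 macrophage markers were 90.6 to 154.3, 133.8 to 204.4 and 121.6 to 185.4 in the 3 groups, with Clec4f and C1qa at 0. Those of 6 B cell markers lay between 34.4 and 71.4 with none at 0. Those of 6 T cell markers lay between 1.20 and 7.07 with Cd3e and Cd4 at 0. The 5 erythroid markers summed to 0.345 to 5.84 with Hba-a1, Hba-a2 and Hbb-bs at 0, and the 6 endothelial markers to 28.8 to 72.7 with Kdr and Cdh5 at 0. Since most uniquely aligned reads lay on no gene and the counted strand is not known, a row at 0 does not show that its cells were absent. The part of these cells in the results was not tested.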

How the data were processed

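Reads of 12 libraries were aligned by the authors with STAR 2.7.9a to GRCm38, per the labels, and counted per gene with HTSeq-count. The deposited values are whole-number read counts, without normalization, for 48709 genes and 5 summary rows (unassigned reads, not used in scaling or testing). Columns were matched to samples by title. The strand option of the counting is not given in the sources used here. Whether libraries of a group came from separate mice is not stated in the labels, so p-values measure the spread between these libraries.

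Symbols and exons came from GENCODE M21, which matched 48349 rows, and sequences from GRCm38. Genes above 1 CPM in at least 3 libraries were kept (12488), scaled by TMM, and tested in R 4.3.3 by quasi-likelihood in edgeR 4.0.16, fitting the 12 libraries together, with p-values adjusted by Benjamini-Hochberg. A call needed an adjusted p under 0.05 together with a log2 difference of 0.5 or more in either direction. Log2 CPM values used a prior count of 2, and normalized CPM none. Errors after ± are SD for levels and SE for log2 differences. Wilson intervals were used for shares, and exact conditional binomial intervals over summed counts for ratios where a group had at most 3 counts per library. Both cover counting error only.

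The members and lists were chosen with earlier results of these data known. Named genes were all members, the genes overlapping them, in each list and comparison the called genes lowest in adjusted p (up to 4), and the 3 genes (5 for Gm26669) most alike by Pearson's r. Of the lists, 2 genes are not reported here and were left out of their counts. S100a8 was named after its values were seen. Alternatives were other scalings, filters and fold limits, DESeq2 1.42.0, voom of limma 3.58.1, fits of 2 groups, a replicate block, genes without opposite-strand exons, and leaving out each library. The fit was tested on simulated data. Libraries of a group had r of 0.903 to 0.963 in log2 CPM and none was a copy. The numbers of libraries examined set the precision, with 3 to 5 per group.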

Additional observations from a re-analysis of the deposited data

Results flagged for a closer look

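Among 16 groups of 4 or 5 libraries examined for the members and the genes that overlap them, 1 held a library far from the others, where chance gives about 1 in 20. It was Ccl25, the gene opposite Elavl1, with 2.92 normalized CPM (4 counts) in 24-hour replicate 4 and 0 in the other 3 libraries of the group.

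The same library stood out in reads that were not assigned to 1 gene. Ambiguous reads numbered 147308 in 24-hour replicate 4, against 14835 to 19906 in the spleen libraries and 9257 to 35212 in the other 11 libraries together. The part of these reads in the results was not tested.

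For 8 genes of the lists, the differences from spleen at 72 and at 24 hours were not equal by the test between the liver groups (edgeR adjusted p below 0.05). The log2 differences of 72-hour against 24-hour neutrophils were 0.66 for Btg1, 1.06 for Btg2, 1.65 for Cnot2 and 2.08 for Cnot8 among the deadenylation genes. They were 1.13 for Fos, 1.71 for Il1b and 2.19 for Ptgs2 among the targets, and 2.93 for Tia1 among the other RNA-binding regulators. Tia1 had at most 1 count in any 24-hour library, and its fitted value depends on the prior count. The number of list genes called fell to 2 without 24-hour replicate 1, 24-hour replicate 2 or 72-hour replicate 3. It fell to 1 without 72-hour replicates 2 and 3 together. Which of the 8 genes kept their calls is not given here.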

How the results depend on the processing

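Over 11 alternatives other than leaving out 1 library (12 for Zc3h12a), the log2 differences of Gm26669 stayed between 2.92 and 3.01 at 24 hours, 1.41 and 1.48 at 72 hours, and -1.54 and -1.46 between the liver groups. Zfp36 and Zfp36l1 kept their 72-hour calls under all of them and in all 12 fits without 1 library, with adjusted p up to 0.0163. Of 201 such values of single members 198 kept their side of the threshold or, where no test was given, moved by less than the spread between replicates. The exceptions were Zfp36l2 at 72 hours with a fold limit of 1 or without 72-hour replicates 2 and 3, where the call was lost, and Elavl1 at 72 hours, which was called by DESeq2 (1.36, adjusted p = 0.0358) and had adjusted p of 0.0358 to 0.180 over its alternatives. No called direction was reversed. Of values that were not called, Zc3h12a at 72 hours against spleen turned from 0.37 to -0.09 without 72-hour replicates 2 and 3, Zc3h12a at 24 hours to 0.08 without spleen replicate 1, and Zfp36l1 between the liver groups to 0.05 without 24-hour replicate 1. Restricting the fit to genes with no opposite-strand exon left 0, 0 and 0 members called in the 3 comparisons by construction, since only Zc3h12a was in it. It also left 552, 360 and 143 called genes (1218, 666 and 561 in the full fit) and 1 list gene between 72 and 24 hours, for which the cause was not tested. DESeq2 called 986 genes and 13 list genes between the liver groups. Leaving out 72-hour replicates 2 and 3, chosen after seeing the data, gave 287 called genes at 72 hours against spleen, 197 between the liver groups and 1 list gene there.

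Leaving out each library in turn gave 575 to 1320 called genes at 24 hours, 314 to 835 at 72 hours and 182 to 796 between the liver groups. The low counts came without spleen replicates 1 (575 and 322) and 2 (611 and 314), and between the liver groups without 24-hour replicates 1 (182) and 2 (252) or 72-hour replicates 1 (309), 2 (371) and 3 (244). Of the members tested at 72 hours against spleen, only Zfp36l2 lost its call, in 4 of these fits. List genes called were 11 to 19 at 24 hours, the 11 without spleen replicate 2. They were 15 to 18 at 72 hours and 2 to 11 between the liver groups. The cause was not tested. The replicate numbers gave no clear pairing. Deviations from the group mean had r of -0.116 to 0.130 in 10 same-numbered pairs (1 over 0.1) and -0.153 to 0.161 in others. Only 2 libraries were most alike to one of their own number. Spleen replicate 3 had r of 0.130 and 0.157 with 24-hour replicates 3 and 4, and -0.153 and -0.138 with 1 and 2. Spleen replicates 1 and 2 had -0.111 to -0.083 with 24-hour replicates 3 and 4, and 0.094 to 0.115 with 1 and 2. Whether these libraries shared handling was not tested. With a replicate block, 1302, 874 and 599 genes were called, and 6 list genes between the liver groups. Of the members tested, Zfp36, Zfp36l1 and Zfp36l2 kept their 72-hour calls in that fit (edgeR adjusted p up to 0.0343). With the longest transcript in place of merged exons, 5 of 18 levels per kilobase moved by more than 1 SD, those of Elavl1 (0.710, 1.06 and 1.87 in spleen, at 24 and at 72 hours) and of Zfp36 (158.8 and 146.5 at 24 and 72 hours), and a prior count of 0.5 moved 1 of 18 log2 levels. Depth limits Zc3h12a and Elavl1, with 4 to 56 and 5 to 30 counts per library.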
